A study of Capra hircus with 3 samples.

Results

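Antimicrobial and acute phase milk proteins were followed through 10 genes chosen by name: LTF, LPO, LCN2, HP, SAA3, LBP, S100A8, S100A9, S100A12 and PTX3. Each gene was looked up by its goat NCBI gene ID among the 13023 protein-coding genes with values, and 8 of the 10 were found. HP and S100A12 were not matched to an ID here and have no value below. LTF, LPO, LCN2, LBP, S100A8, S100A9 and PTX3 were matched by symbol. SAA3 is listed in the gene table as LOC100860781, and its name was taken from the product that the study's supplementary tables give for this ID.

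The samples were mammary gland biopsies of Laoshan dairy goats, taken by surgery from 5 animals that were 4 years old and in the third lactation. No treatment differed between the groups, which were early lactation at 10 days, peak lactation at 90 days and late lactation at 210 days after parturition. RNA with an integrity number of at least 7.7 was pooled over the 5 goats of a stage into 1 library each, called the E, P and L libraries after their labels. Pooling leaves 1 library per stage, so the spread between goats cannot be estimated and every difference below is given without an error, a test or a p-value. Values are FPKM, read fragments scaled to transcript length and to the mapped reads of the library, so that levels of different genes can be compared per length. The reads behind each FPKM are unknown.

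Which column is the P and which the L library was taken from the sample labels. In the study's supplementary table of lncRNAs, the direction between these libraries was mostly the opposite of that in the deposited columns. E, P and L therefore stand for labels, and exchanging P and L turns the direction of every comparison between them. The tissue label was checked on 11 genes of secretory mammary epithelium, whose summed FPKM were 211470 in E, 60913 in P and 157374 in L. LALBA, the whey protein alpha-lactalbumin, was listed at 0 in L and at 70053 FPKM in E, so that a value of 0 is given only as listed. In tissue RNA, fewer cells of a type and less RNA per cell cannot be told apart.

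These genes belong to the innate defence of the udder. Lactoferrin (LTF) binds iron and withholds it from bacteria, lactoperoxidase (LPO) oxidises thiocyanate with hydrogen peroxide into antibacterial products, and lipocalin 2 (LCN2) captures the siderophores with which bacteria collect iron. Serum amyloid A3 (SAA3), haptoglobin (HP) and LPS-binding protein (LBP) are acute phase proteins, and SAA3 is the form made by the mammary epithelium itself. S100A8 and S100A9 form calprotectin, a metal-binding complex abundant in neutrophils and monocytes, and pentraxin 3 (PTX3) is a soluble receptor that marks microbes for complement.

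The 8 genes spanned more than 3 orders of magnitude in level. Their summed FPKM was 4972 in E, 5834 in P and 3861 in L, and SAA3 made up 73.4%, 88.6% and 89.0% of it. LTF was the next most abundant in E and P, with 21.6% and 9.54% of the sum. In L this place was taken by LPO, with 7.78%, while LTF had 1.95%. LCN2 lay below SAA3, LTF and LPO and above the remaining genes in each library. LBP was above S100A8, S100A9 and PTX3 in E and L, and in P it lay below S100A9, which had 13.8 FPKM there. The median of all protein-coding genes above 0 was 7.05, 7.23 and 6.92 FPKM in E, P and L.

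**Figure D1:**
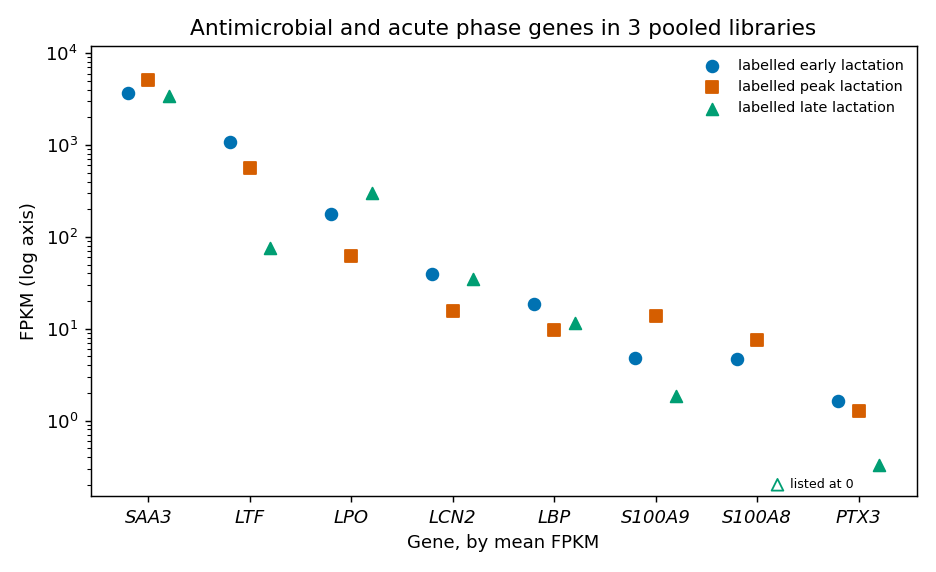
FPKM (log axis) of the 8 genes in the 3 pooled libraries, 1 point per library with no error bars, ordered by mean FPKM. SAA3 sits between 3437 and 5168 FPKM, LTF is lowest in late lactation, at 75.3 FPKM, and the open triangle marks the late value of S100A8, given as 0.

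The genes did not share one order of libraries. LTF, LCN2, LBP and PTX3 had their highest value in E, SAA3, S100A8 and S100A9 in P, and LPO alone in L. The lowest value lay in P for LPO, LCN2 and LBP, in L for the other 5 genes, and in E for 0 of the 8. Among the 12764 protein-coding genes above 0 in every library, 23.4% were highest in E, 43.4% in P and 33.2% in L, and 19.9% were lowest in E, 41.9% in P and 38.2% in L.

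Between the E and P libraries, 1 of the 8 genes was at least 2-fold higher in P and 2 were at least 2-fold lower. Of all 12937 protein-coding genes above 0 in both libraries, 10.5% were at least 2-fold higher in P and 6.69% at least 2-fold lower. The median log2 ratio of P over E was -0.67 over the 8 genes and 0.01 over all genes. The gene called higher was S100A9, and the genes called lower were LPO and LCN2. LTF and LBP lay just inside the limit, at log2 ratios of -0.95 and -0.96.

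Between the E and L libraries, 7 of the genes had a value above 0 in both. At least 2-fold lower in L were 3 of them, LTF, PTX3 and S100A9, and 0 were at least 2-fold higher. Of 12777 protein-coding genes, 5.44% were at least 2-fold lower in L and 1.64% at least 2-fold higher. The median log2 ratio of L over E was -0.69 over the 7 genes and -0.03 over all genes.

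Between the P and L libraries, 2 of 7 genes, LPO and LCN2, were at least 2-fold higher in L and 3 genes, LTF, S100A9 and PTX3, were at least 2-fold lower. The corresponding shares of 12807 protein-coding genes were 8.57% and 16.2%. The median log2 ratio of L over P was -0.59 over the 7 genes and -0.02 over all genes. Each pair of these comparisons shares a library, so they are not independent of one another.

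**Figure D2:**
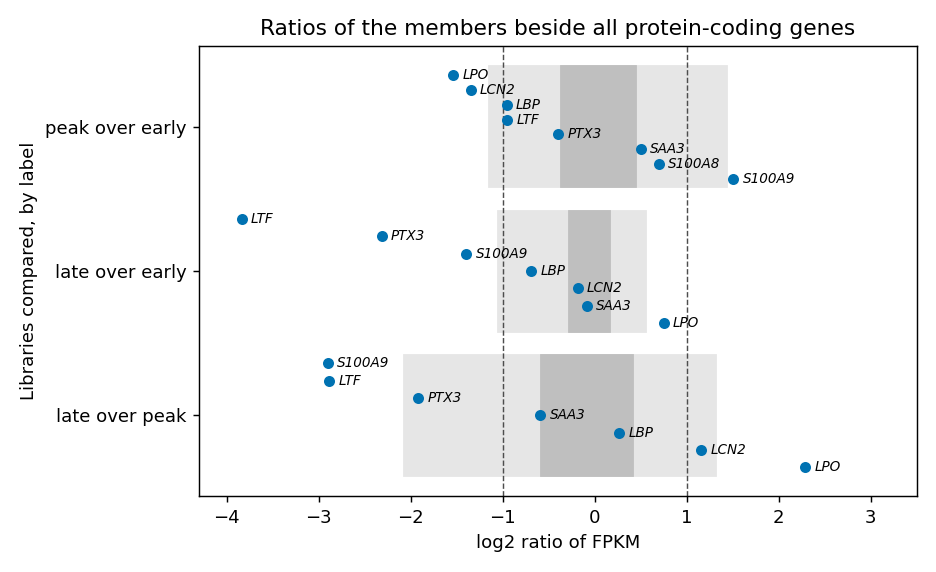
The log2 ratios of FPKM of the members in each pair of libraries, named by label, with dashed lines at a 2-fold difference. Over all protein-coding genes above 0 in both libraries, dark bands run from percentile 25 to 75 and light bands from percentile 5 to 95. LTF at -3.83 for late over early lactation lies farthest from 0, and SAA3 lies between -0.59 and 0.50 in all rows.

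Lactoferrin differed most. LTF, listed on scaffold NW_005100911.1 from 31986666 to 32017082, had 1074 FPKM in E, 556 FPKM in P and 75.3 FPKM in L. The level was thus highest in E and lowest in L, with P 1.93-fold below E and L 14.3-fold below E. In rank among protein-coding genes above 0, LTF went from 28 in E and 38 in P to 469 in L. The log2 ratio of L over E was -3.83, and only 18 of 12777 protein-coding genes had a lower one. With the P and L columns exchanged, this ratio was -0.95 and no longer reached 2-fold. An assembled locus without a gene ID, XLOC_042944, starts 120 nt past the end of the LTF locus and spans 434 nt. It had 3.48 FPKM in E, 2.68 FPKM in P and 0.306 FPKM in L, in the same order as LTF. Another, XLOC_042943, ends 1776 nt before the LTF locus and was highest in P, with 0.554, 1.55 and 0.205 FPKM in E, P and L. Whether these loci belong to the LTF transcript was not tested.

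LPO, listed on scaffold NW_005100883.1 from 3012600 to 3037229, had 178 FPKM in E, 61.4 FPKM in P and 300.2 FPKM in L. L was the highest and P the lowest, 4.89-fold apart, and E lay in between at 2.90-fold above P. Only 150 of 12807 protein-coding genes had a higher ratio of L over P. Lactoferrin exceeded lactoperoxidase 6.03-fold in E and 9.06-fold in P, and lactoperoxidase exceeded lactoferrin 3.99-fold in L. These ratios within a library do not depend on how the libraries were scaled to each other.

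LCN2, listed on scaffold NW_005100783.1 from 4906375 to 4910956, had 39.9 FPKM in E, 15.7 FPKM in P and 35.1 FPKM in L. The values in E and L lay 1.14-fold apart and both were more than 2-fold above P. LCN2 thus had the same lowest library as LPO. LPO exceeded LCN2 4.46-fold in E, 3.91-fold in P and 8.55-fold in L.

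The acute phase gene SAA3 was the steadiest of the 7 genes with a value in every library. It is listed on scaffold NW_005100974.1 from 6879557 to 6883654 and had 3651 FPKM in E, 5168 FPKM in P and 3437 FPKM in L. It was highest in P, 1.42-fold above E, and the values in E and L lay 1.06-fold apart. With ranks of 6 in E, 4 in P and 7 in L among protein-coding genes, it was the most abundant of the 8 genes in each library. The casein genes CSN2 and CSN1S2 were not matched to a value, so these ranks may not count them. Its excess over LTF was 3.40-fold in E, 9.29-fold in P and 45.7-fold in L.

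Serum amyloid A genes form a family of similar copies, and how reads shared by copies were assigned is not known here. Within 80000 nt of the SAA3 locus, 5 other entries were listed, of which all but LOC102168428 had at most 13.5 FPKM in any library. LOC102168428 had 2537 FPKM in E, 1971 FPKM in P and 2497 FPKM in L, so it was lowest in P, where SAA3 was highest. Its locus is shared with another of the 5 entries, and how reads were divided between them is not known here. The gene table gives no symbol for LOC102168428, and it was named after its values were seen. LOC102168699, the closest to SAA3, had 4.47, 0.819 and 2.11 FPKM in E, P and L.

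LBP passes bacterial lipopolysaccharide to CD14 and the receptor complex of TLR4 and LY96. Its locus lies on scaffold NW_005100804.1 from 4772009 to 4808564, with 18.7 FPKM in E, 9.62 FPKM in P and 11.6 FPKM in L. E was the highest library, 1.94-fold above P and 1.61-fold above L. None of these ratios reached 2-fold. CD14 had 12.4, 12.5 and 11.3 FPKM in E, P and L, LY96 had 35.2, 28.0 and 30.4 FPKM, and TLR4 had 13.2, 9.69 and 15.7 FPKM. The receptor genes thus stayed within 2-fold between all libraries as well.

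S100A8 and S100A9 lie 31541 nt apart on scaffold NW_005100633.1, at 3585666 to 3586693 and at 3618235 to 3621032. S100A9 had 4.84 FPKM in E, 13.8 FPKM in P and 1.84 FPKM in L, which put P highest and L lowest, 7.48-fold apart. S100A8 had 4.65 FPKM in E and 7.57 FPKM in P and was listed at 0 in L, so no ratio to L is given. The genes of the calprotectin pair were at nearly the same level in E, with S100A9 at 1.04-fold of S100A8, and S100A9 was 1.82-fold above S100A8 in P. LOC102169149 lies between them and has no symbol in the gene table, and whether it is S100A12 could not be settled from the tables used here. It had 5.58 FPKM in E, 5.25 FPKM in P and 0.797 FPKM in L, and so had its lowest value in the same library as its neighbours.

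**Figure D3:**
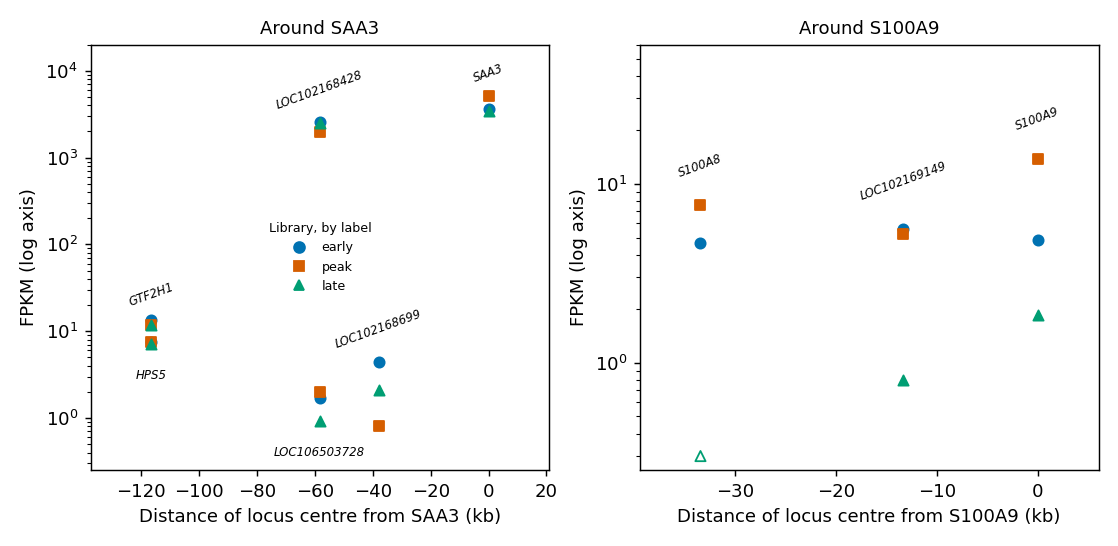
FPKM (log axis) of SAA3 and of S100A9 and of the entries listed near them, against the distance of the locus centres in kb, with 1 point per library named by label. LOC102168428 is the only neighbour of SAA3 near its level, and the open triangle marks the late value of S100A8, given as 0.

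PTX3 was the least abundant, with 1.65 FPKM in E, 1.26 FPKM in P and 0.332 FPKM in L. It was lowest in L, 4.97-fold below E and 3.78-fold below P. With a pseudocount of 1 FPKM the log2 ratios were -0.99 for L over E and -0.76 for L over P, so that neither reached 2-fold. Its locus on scaffold NW_005100608.1, from 5410318 to 5670769, is shared with VEPH1, and how reads were divided between the genes is not known here. VEPH1 had 8.44 FPKM in E, 3.45 FPKM in P and 12.1 FPKM in L, the opposite order of P and L from PTX3. The assembled loci without a gene ID within 5000 nt, XLOC_001225, XLOC_001227 and XLOC_001228, were all lowest in P and highest in L, as VEPH1 was. TNFAIP6, which encodes a hyaluronan-binding protein that also binds PTX3, had 2.74, 0.958 and 2.06 FPKM in E, P and L.

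The log2 values of each gene were centred on their mean over the 3 libraries to take out differences in level. This comparison was chosen after the values were seen. The centred values, here called the shape, were not scaled. Distances therefore depend on the size of a change as well as its direction, and genes that differ little between libraries lie close together. The distance between shapes was smallest between LCN2 and LBP, at 0.63 log2 units. LPO and LCN2 followed at 0.85, SAA3 and LBP at 1.04 and LTF and PTX3 at 1.09. SAA3 and LBP are among these pairs although SAA3 was highest in P and LBP lowest there. It was largest between LTF and LPO, at 4.01. To the median shape of the secretory epithelium genes, LCN2 lay at 0.39 and LPO at 0.55. Farthest from it were LTF at 3.51 and S100A9 at 3.14. To the median of the monocyte and macrophage genes, SAA3 lay at 0.81, S100A9 at 0.91 and PTX3 at 0.98. The other 4 genes lay farther off, up to 2.79 for LPO. SAA3 lay closer to the medians of other lists described below. These distances were 0.19 for upstream cytokine genes, 0.33 for neutrophil genes and 0.35 for hepatocyte and plasma protein genes. They were 0.40 for receptors and binding partners and 0.53 for other acute phase genes. With 3 libraries, such distances describe these pools only.

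**Figure D4:**
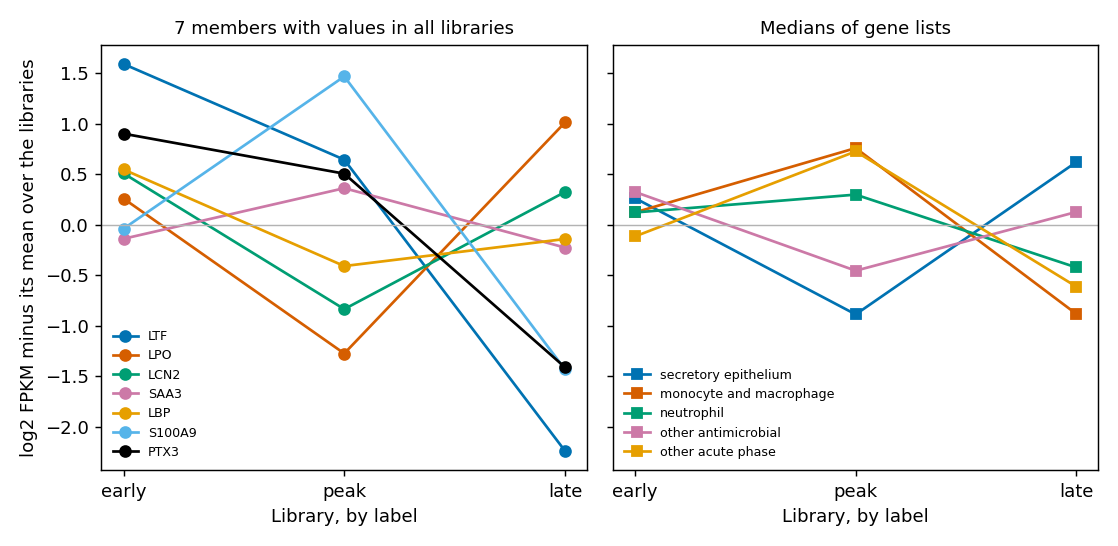
Log2 FPKM minus its mean over the 3 libraries, for the 7 members above 0 in every library (left) and for the medians of 5 gene lists (right), against the library by label. LPO, LCN2 and LBP dip in the library labelled peak lactation as the secretory epithelium and other antimicrobial medians do. SAA3, S100A9 and the monocyte and macrophage, neutrophil and other acute phase medians are highest there.

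Markers of other cells moved between the libraries too. Of 15 monocyte and macrophage genes, 11 were listed, with none at 0, and their summed FPKM was 203 in E, 339 in P and 107 in L. The complement genes C1QA, C1QC and C1QB led this list, and C1QA had 58.5, 107 and 28.4 FPKM. Against P, 8 of the 11 genes were at least 2-fold lower in L and 0 were higher, with a median log2 ratio of -1.63. The corresponding shares of all protein-coding genes were 16.2% and 8.57%. The order of the sums, P above E above L, is that of S100A8 and S100A9.

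Of 20 neutrophil genes, 9 were listed, with none at 0, at a summed FPKM of 54.2 in E, 31.7 in P and 49.1 in L. In E and L this sum was mostly NCF4, a subunit of the phagocyte oxidase, which alone had 39.7, 14.0 and 39.0 FPKM in E, P and L. Without NCF4 the other 8 genes summed to 14.5 FPKM in E, 17.7 FPKM in P and 10.1 FPKM in L. The most abundant gene was left out for this list only, after its values were seen. CSF3R, the receptor of the neutrophil growth factor, had 2.47, 2.44 and 2.70 FPKM and ELANE, neutrophil elastase, 2.04, 2.75 and 2.06 FPKM. The part of either cell type in the levels of S100A8, S100A9, LTF or LCN2 was not tested.

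Among the 11 listed genes of secretory epithelium, 7 were at least 2-fold lower in P than in E and 0 were higher. Their median log2 ratio was -1.24. The corresponding shares of all protein-coding genes were 6.69% and 10.5%. CSN3, kappa-casein, had 25445 FPKM in E, 3989 FPKM in P and 27391 FPKM in L, and PAEP, beta-lactoglobulin, had 84874, 26999 and 83113 FPKM. Of the 10 with a ratio, 0 were at least 2-fold apart between E and L. Over all protein-coding genes, 5.44% were lower in L and 1.64% higher. LPO and LCN2 were lowest in P, as CSN3 and PAEP were. LTF stood 14.3-fold lower in L than in E. Between these libraries CSN3 and PAEP were nearly level, and LALBA was listed at 0 in L. Of the epithelial markers KRT8, KRT18, KRT19 and EPCAM, all named after their values were seen, KRT8 and KRT18 were highest in P. KRT8 had 126, 196 and 154 FPKM in E, P and L. The most abundant of them, KRT19, was highest in E, with 439, 413 and 364 FPKM in E, P and L. EPCAM was highest in E and lowest in P, so these markers did not share one order of libraries. The part of epithelial cell number or secretory activity was not tested.

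Other antimicrobial proteins of milk and mucosa were followed through a list of 34 genes, of which 14 had values. In P, 6 of them were at least 2-fold below E and 2 were at least 2-fold above it, with a median log2 ratio of -0.74. The corresponding shares of all protein-coding genes were 6.69% and 10.5%. In L, 0 of 13 were at least 2-fold above E and 2 at least 2-fold below it, beside 1.64% and 5.44% of all genes. The 4 most abundant were XDH, PIGR, MUC15 and CHI3L1. XDH, the xanthine dehydrogenase of the milk fat globule membrane, had 1558 FPKM in E, 509 FPKM in P and 2148 FPKM in L. PIGR, the receptor that carries IgA into milk, had 521, 195 and 585 FPKM, and the membrane mucin MUC15 had 108, 41.7 and 166 FPKM. These 3 genes had the order of LPO, with P lowest and L highest. XDH is also in the list of secretory epithelium genes above, so the counts and medians of these lists are not separate. CHI3L1, a chitinase-like secreted protein, had 82.7, 175 and 34.9 FPKM, in the order of S100A9. PGLYRP1, a peptidoglycan recognition protein named after its values were seen, had 63.2 FPKM in E, 3.30 FPKM in P and 13.5 FPKM in L, a log2 ratio of P over E of -4.26.

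Of 20 other acute phase genes, 8 had values. P exceeded E at least 2-fold in 4 of 7 and was at least 2-fold lower in 1, at a median log2 ratio of 1.03. The corresponding shares of all protein-coding genes were 10.5% and 6.69%. L was at least 2-fold below P in 5 of 7 and above it in 1, at a median of -1.26. Over all genes, 16.2% were below and 8.57% above. STEAP4, a metalloreductase, had 17.4 FPKM in E, 40.0 FPKM in P and 12.2 FPKM in L, and CFB, complement factor B, had 5.49, 18.8 and 1.95 FPKM. FGL1 had 6.41, 10.2 and 4.27 FPKM, and ITIH4 4.25, 8.71 and 3.95 FPKM. All 4 genes had the order of SAA3, with P highest and L lowest, and spanned a wider range than SAA3 did. SAA1 and SAA2 were not matched to a value here.

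Receptors and binding partners of the members made a list of 24 genes, of which 15 had values. Between E and P, 2 were at least 2-fold higher in P and 2 lower, with a median log2 ratio of 0.01. The corresponding shares of all protein-coding genes were 10.5% and 6.69%. The most abundant were CD36, BSG, C1QA and LRP1. LRP1, an endocytic receptor that takes up lactoferrin, had 33.1, 67.3 and 29.1 FPKM in E, P and L, and CD36, a scavenger receptor also found in the milk fat globule membrane, had 685, 179 and 782 FPKM. BSG, which binds S100A9, had 211, 117 and 259 FPKM. SLC22A17, a receptor for lipocalin 2, had 2.85, 5.68 and 3.58 FPKM, and so was highest in P, where LCN2 was lowest. The haptoglobin receptor CD163 and the DUOX genes, which supply hydrogen peroxide for lactoperoxidase, were not matched to values here.

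The genes with the shape most like that of SAA3, LTF and LPO were sought among 11087 protein-coding genes above 1 FPKM in every library. Closest to SAA3 were PCBP1, TEX9 and ZC3HC1, at distances of 0.0016, 0.0037 and 0.0082 log2 units. PCBP1 had 21.8, 30.8 and 20.5 FPKM in E, P and L. Closest to LPO were CDCA7 at 0.028, LOC102181614 at 0.070 and SLC6A4 at 0.079, and CDCA7 had 15.7, 5.28 and 26.2 FPKM. LTF, which differed most between libraries among the members above 0 in all of them, had no such close neighbour. Genes with smaller differences lie farther from it by this measure. The nearest genes, LOC102178870, ITGB6 and CYR61, lay at 0.90, 1.05 and 1.18, and ITGB6 had 23.6, 25.1 and 4.50 FPKM.

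Scaling mattered most for comparisons with P. The summed FPKM of protein-coding genes without CSN1S1, CSN3, LALBA and PAEP was 272791 in E, 217618 in P and 271233 in L. The casein genes CSN2 and CSN1S2 were not matched to a value and could not be left out by name. Shares of this sum lie 0.33 log2 units higher for P over E than FPKM do. SAA3 made up 1.34% of it in E, 2.37% in P and 1.27% in L, and LTF 0.394%, 0.256% and 0.0277%. On this scale the log2 ratio of S100A8 for P over E was 1.03 instead of 0.70, and that of LCN2 for L over P was 0.84 instead of 1.16, so S100A8 passed and LCN2 missed the 2-fold limit. LBP changed sign for L over P, from 0.27 to -0.05.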

How the data were processed

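At each of 3 lactation stages, equal amounts of RNA from the udders of 5 goats were mixed and sequenced as 1 strand-specific library. Per the labels and the study's methods, the authors mapped the reads with TopHat2 2.0.9 and Bowtie2, assembled transcripts with Cufflinks 2.1.1, merged them with Cuffmerge and computed the deposited FPKM with Cuffdiff. The methods name a goat genome release for mapping and an accession of the ARS1 series for assembly, and which of them the deposited scaffold coordinates follow was not determined. Depth per locus is unknown.

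Columns were assigned by label. For annotated lncRNAs in the supplementary table, the ratio between the libraries labelled peak and late had the same direction in 20 of 140 genes as labelled and in 120 with the columns exchanged, for early and late in 58 and 112 of 129, and for early and peak in 35 and 42 of 65.

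Loci of one gene ID were summed, which for the members left 1 locus each. Gene IDs were named from the RefSeq table of ARS1.2, used without coordinates. A gene was called at a ratio of FPKM of at least 2, with FPKM above 0 in both libraries. With 1 library per stage no test was run. Fold calling was tested on simulated data. Members and gene lists were chosen with earlier results of these data known. From each list the text names at most 4 genes, by highest mean FPKM, and direct partners of a member, and any other gene is said to be named after its values were seen. Lists of hepatocyte and of upstream cytokine genes are given among the closing observations. Alternatives were pseudocounts of 0.1 and 1, 0 set to 0.001, a fold of 4, the highest locus alone, median centring, a limit of 1 FPKM, shares without milk proteins, and exchanged columns. No member sequence was used here. Python 3.11.15, numpy 2.4.6, pandas 2.3.3 and matplotlib 3.10.9 were used.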

Additional observations from a re-analysis of the deposited data

How the results depend on the processing

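With 1 library per stage no replicate could be left out, and the reads behind an FPKM are unknown, which limits S100A8, S100A9 and PTX3 most, the members of lowest mean level. At a fold of at least 4, 0 members were called between early and peak lactation and 3 between peak and late, fewer by construction. Shares of all protein-coding genes were computed for the main 2-fold calls only. The counts of members in this section therefore have no such share beside them. Under the other alternatives the number of members called stayed within 1.5 times its value in each comparison, but which members were called changed. For single members, exchanging the columns labelled peak and late turned called log2 ratios for peak over early to 0.75 for LPO and -1.39 for S100A9, and for late over early to 1.51 for S100A9. It ended the calls of LCN2 for peak over early, at -0.18, and of LTF and PTX3 for late over early, at -0.95 and -0.40. New calls for peak over early were LTF at -3.83 and PTX3 at -2.31, and for late over early LPO at -1.54 and LCN2 at -1.35. Called ratios for late over peak turned to 2.89 for LTF, -2.29 for LPO, -1.16 for LCN2, 2.90 for S100A9 and 1.92 for PTX3. Other alternatives reversed 0 called ratios. The shares without milk proteins, as a count of calls, were chosen after the values were seen and gave 4 members for peak over early, 3 for late over early and 4 for late over peak. With 0 set to 0.001 or a pseudocount of 0.1, S100A8 was also called lower in late lactation, from its listed 0. A pseudocount of 1 ended both calls of PTX3, at -0.99 for late over early and -0.76 for late over peak. No paired analysis was possible because a stage is a single pool.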

Other observations

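Cytokine, receptor and transcription factor genes that act upstream of acute phase expression were listed for 25 of 31 names. Between E and P, 4 of the 25 were at least 2-fold higher in P and 0 lower, with a median log2 ratio of 0.30. The shares of all protein-coding genes were 10.5% higher and 6.69% lower. Between P and L, 8 were at least 2-fold lower in L and 0 higher, with a median of -0.52. Of all protein-coding genes, 16.2% were lower and 8.57% higher. The 4 most abundant were JAK1, STAT3, NFKBIA and JAK2. STAT3, the transcription factor that carries interleukin 6 signals, had 41.3, 40.9 and 38.6 FPKM in E, P and L, and JAK2 had 30.3, 29.7 and 29.7 FPKM. NFKBIA, an inhibitor of NF-kappaB that NF-kappaB itself induces, had 36.4, 51.0 and 23.0 FPKM, the order of SAA3.

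Genes of hepatocytes and plasma proteins were listed for 4 of 12 names. FGG, the gamma chain of fibrinogen and an acute phase protein of the liver, had 21.0 FPKM in E, 3.05 FPKM in P and 22.4 FPKM in L, with P lowest as for LPO and LCN2. APOA1 had 2.09, 4.98 and 2.27 FPKM, TTR 2.33, 4.47 and 0.133 FPKM and SERPINC1 0.622, 0.679 and 0.838 FPKM.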
